A study of Mus musculus with 32 samples.

Results

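Scrambled 1 is a locked nucleic acid oligonucleotide of scrambled sequence that was injected into mouse pups as a control for oligonucleotides that block microRNAs. The 10 genes described here, Slc17a2, Colq, Hpcal4, Disp2, H2afj, Cxcl14, Cyp2e1, Ssbp4, Eva1b and Wisp2, are genes whose lung mRNA set pups given scrambled 1 apart from other pups of the same age. They are 10 of 46165 gene records in the deposited tables, of which 18853 had at least 1 exon read. They were taken by name after earlier results of these same libraries, in which scrambled 1 was set against the other groups of postnatal day 14. Levels after scrambled 1 and differences from it are therefore given as a description, and counts of genes past the threshold there are not read as tests. Tests are read for the 8 comparisons in which scrambled 1 had no part. Of these, the 4 of day 14 and the comparison with age use libraries that scrambled 1 had been set against, and are not independent of the choice of genes.

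The lungs of C57BL/6 pups, perfused with phosphate-buffered saline, gave 32 libraries, 4 for each of 8 groups. At postnatal day 14, scrambled 1 pups and scrambled 2 pups had received 10 mg per kg of their oligonucleotide, dissolved in nuclease-free water, by injection into the peritoneum on days 1 and 3. Water pups had received 10 µl per g of nuclease-free water alone on the same days, daily saline pups 25 µl per g of saline on every day from day 1 to day 13, and untreated pups no injection. At postnatal day 6, tamoxifen pups had received 0.4 mg of tamoxifen in 25 µl of Miglyol (an oil, also spelled Migloyl in the labels) on days 1 and 2, Miglyol pups 25 µl of the oil, and saline pups 25 µl of saline (treatment day 1+2). Pups of day 6 were killed with pentobarbital and those of day 14 with isoflurane. Scrambled 2 is labelled as a newer design of scramble control, and the sequences of both oligonucleotides are not used here. The labels do not tie samples to separate animals, so p-values measure only how far libraries of a group differ from each other, and part of that may be technical.

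After birth the mouse lung divides its airspaces by new septa, a process in which epithelium, capillary endothelium and several kinds of fibroblast mature side by side. Oligonucleotides given into the peritoneum reach many organs, and a scrambled control is meant to share the chemistry of the inhibitor without a microRNA target. The 10 genes come from separate families. Slc17a2 encodes a sodium-dependent phosphate transporter of the SLC17 family, Colq the collagen-like tail that anchors acetylcholinesterase in the synaptic matrix, and Hpcal4 a calcium sensor of the visinin-like family. Disp2 encodes a relative of Dispatched, the protein that releases hedgehog ligands from cells, and H2afj a variant of histone H2A. Cxcl14 is a chemokine of epithelia and fibroblasts, Cyp2e1 a cytochrome P450 that oxidises ethanol and other small molecules, and Wisp2 (also called Ccn5) a secreted protein of the CCN family. Ssbp4 encodes a protein of the family that binds the LIM-domain cofactors Ldb1 and Ldb2, and Eva1b a small membrane protein.

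In the coordinates of the files, Slc17a2 (gene ID 218103) lay on chromosome 13 from 23806941 to 23825191, Colq (382864) on chromosome 14 from 31523082 to 31577863, and Hpcal4 (170638) on chromosome 4 from 123183504 to 123194699. Chromosome 4 also held Eva1b (230752), from 126145704 to 126149879. Disp2 (214240) and Wisp2 (22403) lay on chromosome 2, from 118779702 to 118795175 and from 163820778 to 163833146. H2afj (232440) lay on chromosome 6 from 136808248 to 136810074, Cxcl14 (57266) on chromosome 13 from 56288643 to 56296792, Cyp2e1 (13106) on chromosome 7 from 140763832 to 140774981, and Ssbp4 (76900) on chromosome 8 from 70597485 to 70608380. The 10 genes are thus spread over 7 chromosomes, and no record overlapped another gene record that could share its reads. Of their exon reads 98.9% (Cyp2e1) to 100% mapped to a single place. H2afj, with 1 exon, belongs to a family of close copies, and 99.96% of its reads were unique.

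For 7 of the 10 genes RefSeq gives a promoter window in build GRCm38.p6 (250 bases before the transcription start and 50 after). Shown are the 120 bases before the start of Slc17a2, the gene that was lower after scrambled 1, of H2afj and Ssbp4, which were higher than in every other day 14 library, and of Cyp2e1, the only one of the 7 with TATAAA in its window. Capitals mark a CCAAT box, a GC box (GGGCGG) and a TATA box (TATAAA), each searched on both strands, so that the CCAAT box may be printed as ATTGG, the GC box as CCGCCC and the TATA box as TTTATA.
Slc17a2, chr13:23806873-23806992, plus strand: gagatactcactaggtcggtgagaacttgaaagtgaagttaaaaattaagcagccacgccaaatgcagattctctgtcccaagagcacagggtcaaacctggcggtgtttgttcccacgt
H2afj, chr6:136808128-136808247, plus strand: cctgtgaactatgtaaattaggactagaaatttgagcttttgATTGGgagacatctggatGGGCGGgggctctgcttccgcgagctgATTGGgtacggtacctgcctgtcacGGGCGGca
Ssbp4, chr8:70608315-70608434, minus strand: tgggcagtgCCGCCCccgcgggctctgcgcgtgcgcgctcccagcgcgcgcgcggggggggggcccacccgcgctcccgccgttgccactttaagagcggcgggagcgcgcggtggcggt
Cyp2e1, chr7:140763699-140763818, plus strand: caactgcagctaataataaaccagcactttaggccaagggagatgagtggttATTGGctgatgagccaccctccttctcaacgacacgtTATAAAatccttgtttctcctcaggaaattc
The stretches differ in kind. That of Cyp2e1 holds 2 CpG pairs and TATAAA 31 bases before the start, a motif in 13.6% of all 32851 windows. That of Ssbp4 holds 22 CpG pairs. H2afj has 2 copies each of ATTGG and GGGCGG, as histone genes often do, and CCAAT in either reading is in 37.4% and GGGCGG in 35.7% of all windows. In the Slc17a2 stretch none of the 3 motifs occurs, and CACGTG begins 5 bases and TGACTCA 1 base before its start, so that both run past the printed end. CACGTG is in 7.15% and TGACTCA in 5.20% of all windows, both strands counted. No motif searched was in all 7 windows. The files name no build, and RefSeq starts need not be those of their records. By position, 52 of the 120 bases shown for Slc17a2 and 66 of those for Ssbp4 lie within the gene record of the files, and 0 of those for H2afj and Cyp2e1. These are matches of letters, and no binding was measured.

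Libraries held 7918537 to 12443221 exon reads. CPM below are exon reads scaled to library size, with TMM factors. Some libraries stood apart. Xist, an RNA made from the inactive X of female cells, was at a high level in 2 of the 4 scrambled 1 libraries, 1 of scrambled 2, 2 of daily saline, 3 of untreated and 0 of water, so the water group held libraries of 1 kind only. At day 6 it was high in 2 of 4 libraries in every group. Water replicate 3 held 412 CPM in 10 skeletal muscle genes, where the water median was 10.6 CPM, and 582 CPM in 10 adipose genes, where that median was 132 CPM. The intronic share of reads ran from 8.69% to 16.1% over the libraries and separated some groups. It was 13.4% to 14.8% in scrambled 1 and 8.69% to 11.2% in daily saline libraries of day 14, and 13.9% to 16.1% in saline libraries of day 6. All 10 lung epithelium markers were read in every group, at summed levels of 15750 to 24210 CPM, and the 10 liver markers at 3.51 to 68.4 CPM.

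**Figure D1:**
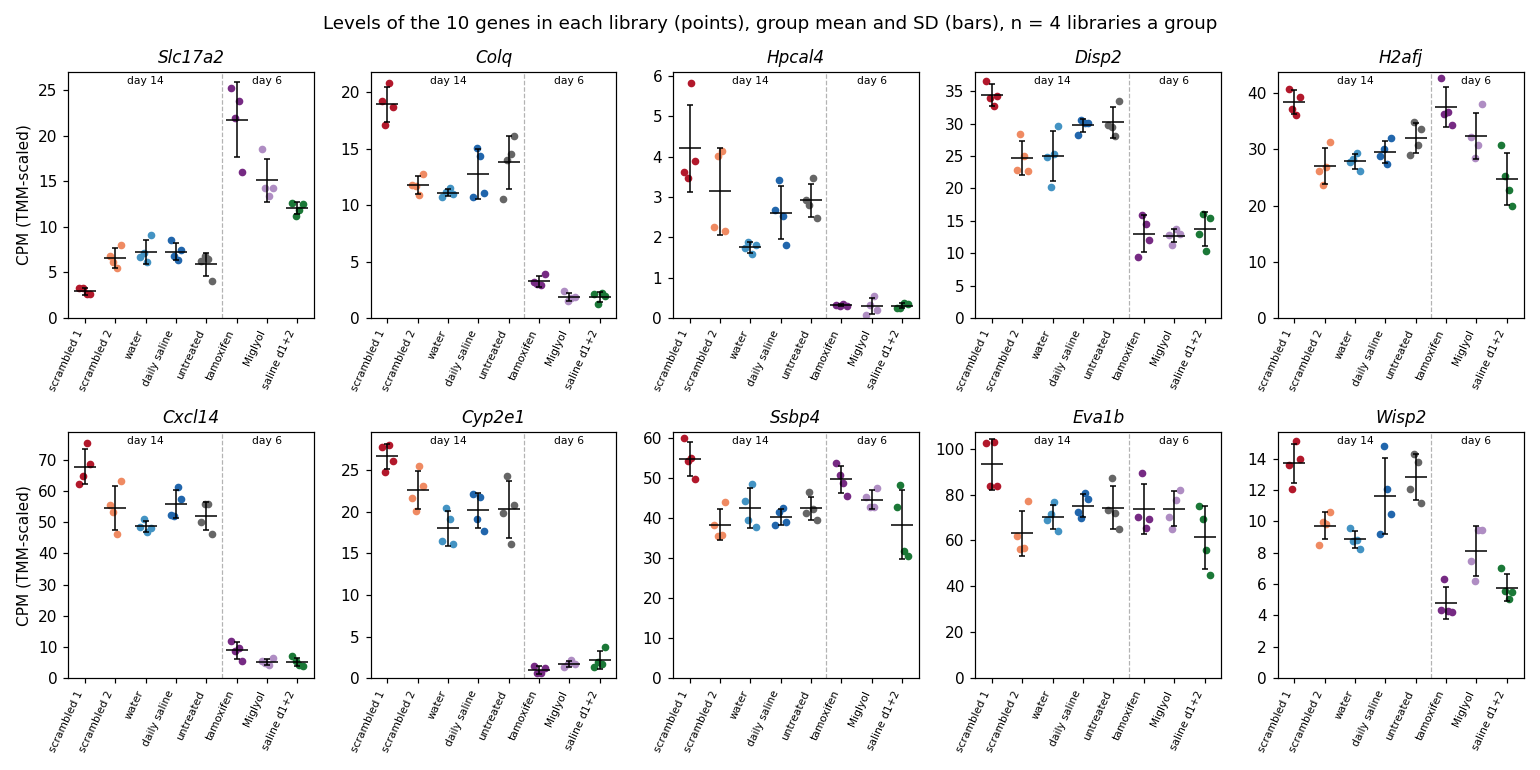
CPM of each gene (vertical axes, starting at 0) in each of the 32 libraries (points), with the group mean and SD (horizontal mark and bar, n = 4), for the 5 groups of day 14 left of the dashed line and the 3 of day 6 right of it. Scrambled 1 has the lowest mean of day 14 for Slc17a2 and the highest for the other 9 genes, and Colq, Hpcal4, Cxcl14 and Cyp2e1 are near the bottom of the axis at day 6.

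Across day 14, scrambled 1 lungs had the lowest mean of the 5 groups for Slc17a2 and the highest for each of the other 9 genes. In 4 genes, Slc17a2 below and Colq, H2afj and Ssbp4 above, all 4 scrambled 1 libraries lay outside the range of the 16 other day 14 libraries, where 0.353% of all 14179 genes tested did so. In the other 6 genes the ranges overlapped. Against water alone all 10 genes had ranges apart (5.48% of all genes). These counts follow from how the genes were chosen and nothing is read from them. In deposited TPM, which corrects for transcript length, scrambled 1 levels ran from 1.58 ± 0.196 TPM for Slc17a2 (SD, n = 4, as for every mean below) to 88.2 ± 10.7 TPM for Eva1b, with Hpcal4 also low at 2.30 ± 0.631 TPM.

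The transporter Slc17a2 stood at 3.28, 3.25, 2.64 and 2.60 CPM in scrambled 1 lungs, at 6.77, 6.20, 5.45 and 8.04 CPM in scrambled 2 lungs, and at 6.64, 7.15, 6.12 and 9.12 CPM in water lungs. It stood at 8.55, 6.82, 6.35 and 7.44 CPM in daily saline lungs and at 6.21, 6.77, 6.51 and 4.06 CPM in untreated lungs. All 4 scrambled 1 values lay below the lowest of the others, which was an untreated library, and the 4 other groups overlapped one another. The log2 fold change was -1.30 (SE 0.18) against water, -1.17 (SE 0.19) against scrambled 2, -1.32 (SE 0.19) against daily saline and -1.01 (SE 0.19) against untreated lungs. These values rest on 25 to 28 exon reads in each scrambled 1 library. Reads in its introns also stood lower, with 47 in scrambled 1 and 84 in water libraries, ranges that did not overlap and a ratio of 0.599 after scaling, where the ratio of exon levels was 0.405. Intron levels of scrambled 1 libraries (1.05 to 1.39 CPM) overlapped with those of scrambled 2 (1.31 to 2.07 CPM) and daily saline libraries (0.426 to 3.82 CPM), and not with those of untreated libraries (1.77 to 4.06 CPM).

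Colq, the tail of acetylcholinesterase, stood at 19.2, 17.1, 20.8 and 18.7 CPM in scrambled 1 lungs. It stood at 11.8, 11.7, 10.9 and 12.8 CPM in scrambled 2 lungs and at 10.7, 11.1, 11.5 and 11.0 CPM in water lungs, the narrowest group. Daily saline lungs had 10.7, 15.02, 14.3 and 11.1 CPM and untreated lungs 10.5, 14.0, 14.5 and 16.1 CPM. The lowest scrambled 1 library was above the highest other, again an untreated one. The log2 fold change was 0.77 (SE 0.12) against water, 0.69 (SE 0.12) against scrambled 2, 0.57 (SE 0.12) against daily saline and 0.46 (SE 0.12) against untreated lungs. Its intron reads, 180 in scrambled 1 and 144 in water libraries, overlapped between the groups.

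The histone variant H2afj had 40.8, 37.3, 36.1 and 39.4 CPM in scrambled 1 lungs, against 23.6 to 34.8 CPM in the 16 other day 14 lungs with a median of 28.9 CPM. Ssbp4 had 59.9, 54.1, 55.0 and 49.6 CPM in scrambled 1 lungs, against 35.5 to 48.5 CPM in the 16 others with a median of 40.4 CPM. In both genes the gap to the nearest other library was small beside the difference in means, and that library was an untreated one for H2afj and water replicate 3 for Ssbp4. Against scrambled 2, which shares dose, days and solvent, the log2 fold changes were 0.51 (SE 0.08) for each of the 2 genes. Both are genes in which the 4 other groups lay close together, at means of 26.997 to 32.0 CPM for H2afj and of 38.3 to 42.5 CPM for Ssbp4.

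Disp2 had 36.6, 34.0, 32.7 and 34.3 CPM in scrambled 1 lungs, 22.8, 28.3, 24.9 and 22.7 CPM in scrambled 2 lungs and 24.8, 20.3, 25.3 and 29.6 CPM in water lungs. Untreated replicate 4, at 33.5 CPM, overlapped with scrambled 1. Eva1b had 103, 83.6, 103 and 83.7 CPM in scrambled 1 lungs, 62.2, 56.1, 56.9 and 77.2 CPM in scrambled 2 lungs and 69.0, 71.5, 76.5 and 64.1 CPM in water lungs. Untreated replicate 2, at 87.1 CPM, lay within the scrambled 1 values. For these 2 genes the 2 solvent-matched groups were below every scrambled 1 library, with log2 fold changes against scrambled 2 of 0.47 (SE 0.09) for Disp2 and 0.56 (SE 0.10) for Eva1b.

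Wisp2 had 13.6, 12.1, 15.1 and 14.0 CPM in scrambled 1 lungs, against 8.52, 9.98, 9.80 and 10.6 CPM in scrambled 2 lungs and 9.61, 8.74, 8.83 and 8.27 CPM in water lungs. Untreated lungs, at 12.0, 14.3, 13.8 and 11.2 CPM, and daily saline lungs, at 9.19, 14.8, 12.1 and 10.5 CPM, overlapped with it. The difference thus depended on the group set against it, at a log2 fold change of 0.63 (SE 0.13) against water and of 0.10 (SE 0.12) against untreated lungs.

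Hpcal4, Cxcl14 and Cyp2e1 overlapped with scrambled 2. Hpcal4 had 3.63, 3.48, 5.82 and 3.89 CPM in scrambled 1 lungs, 2.26, 4.02, 4.14 and 2.17 CPM in scrambled 2 lungs and 1.74, 1.89, 1.57 and 1.80 CPM in water lungs. Cxcl14 had 62.4, 64.8, 75.3 and 68.8 CPM in scrambled 1 lungs, 55.4, 53.4, 46.1 and 63.1 CPM in scrambled 2 lungs and 48.5, 51.2, 46.8 and 48.1 CPM in water lungs. Cyp2e1 had 27.7, 24.7, 28.0 and 26.0 CPM in scrambled 1 lungs, 21.7, 20.1, 25.5 and 23.1 CPM in scrambled 2 lungs and 16.5, 20.5, 19.1 and 16.1 CPM in water lungs. In all 3 genes the mean of scrambled 2 lay between those of scrambled 1 and water. Against water the scrambled 1 log2 fold changes were 1.26 (SE 0.25), 0.48 (SE 0.08) and 0.56 (SE 0.11), and against scrambled 2 they were 0.41 (SE 0.24), 0.32 (SE 0.08) and 0.24 (SE 0.11), in the same order of genes.

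**Figure D2:**
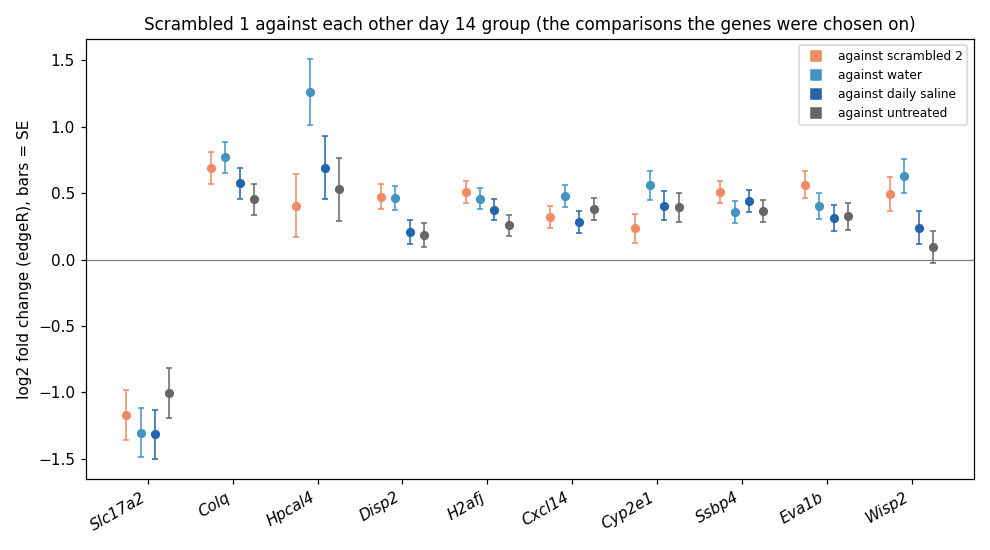
Log2 fold change of scrambled 1 over each other day 14 group (vertical axis, points, bars are SE) for the 10 genes, the comparisons on which the genes were chosen. All 4 values of Slc17a2 are below 0, from -1.32 to -1.01, and all 36 values of the other 9 genes are above 0, with Wisp2 against untreated lungs the smallest at 0.10.

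At an edgeR adjusted p under 0.05 over all genes, 8 of the 10 genes counted as called against water (0.120% of all genes), 6 against scrambled 2 (0.205%), 3 against untreated (0.303%) and 5 against daily saline lungs (2.16%). The intronic share also differed between scrambled 1 and daily saline libraries, with no overlap, and with it as a covariate only Ssbp4 was called there. These 4 comparisons share the scrambled 1 libraries and are the ones the genes were chosen on. Slc17a2 was called in all 4, but against daily saline not with the intronic share as a covariate. The counts rested on few libraries. Against water the count was 2 without scrambled 1 replicate 4, 3 without scrambled 1 replicate 1 or replicate 3, 4 without water replicate 1 or replicate 4, 5 without water replicate 2, and 6 without water replicate 3, the library with muscle and adipose genes. Against scrambled 2 it was 0 without scrambled 1 replicate 1 or scrambled 2 replicate 1, 1 without scrambled 1 replicate 3 or replicate 4, and 2 without scrambled 2 replicate 3. Against untreated lungs it was 0 or 1 in every fit with a library left out, and against daily saline it was 2 without daily saline replicate 1 and 3 without scrambled 1 replicate 3 or replicate 4.

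The difference in Xist between the groups moved with these calls. With Xist as a covariate 1 of the 10 genes, Slc17a2, was called against water, while the log2 fold changes moved less, to -1.19 (SE 0.20) for Slc17a2 and 0.66 (SE 0.12) for Colq. Within scrambled 1, the ratios to the water mean in the 2 libraries low and the 2 high in Xist were 0.404 and 0.406 for Slc17a2. They were 1.71 in both for Colq, 2.15 and 2.66 for Hpcal4, 1.42 and 1.33 for Disp2, and 1.44 and 1.31 for H2afj. For Cxcl14 they were 1.35 and 1.44, for Cyp2e1 1.49 and 1.46, for Ssbp4 1.29 and 1.28, for Eva1b 1.32 and 1.33, and for Wisp2 1.55 and 1.53. No water library was high in Xist, so Xist and group are partly joined here, and the part of Xist was not tested. The marker lists of lung epithelium, mesenchyme, adventitial fibroblasts, mesothelium, liver and adipose tissue hold 56 genes, of which 48 were tested. Of these, 0 were called against water by edgeR and 1 by DESeq2, which gave no adjusted p for 11, all 4 liver genes among them. At an unadjusted edgeR p under 0.05 were 3, where 11% of all 14179 genes were. Of 8 endothelial markers edgeR called 1 and DESeq2 2, and 5 were at an unadjusted edgeR p under 0.05, beside the same 11% of all genes. Of 6 skeletal muscle genes tested edgeR called 0, and 4 were at an unadjusted edgeR p under 0.05. DESeq2 gave no adjusted p for any of the 6, so it could call none of them. Their median log2 fold change was -2.71, with water replicate 3 the library high in them. Of 8 nerve and Schwann cell genes edgeR called 0 and DESeq2 1, with 2 at that unadjusted p. Of 8 heart muscle and 5 thymus genes 0 were past either threshold in edgeR or called by DESeq2. DESeq2 gave no adjusted p for 4 of the nerve and Schwann cell, 3 of the heart muscle and 4 of the thymus genes. Summed levels overlapped between scrambled 1 and water lungs for epithelium (19700 to 22780 against 18060 to 22090 CPM) and adventitial fibroblasts (2268 to 2396 against 2059 to 2395 CPM), and not for endothelium (3672 to 4095 against 3252 to 3572 CPM). Their part in the results was not tested. In whole lung, fewer cells of a type and less RNA per cell cannot be told apart.

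Relatives of the 10 genes were set beside them. In lists of the SLC17 and phosphate transporters, the cholinergic synapse, calcium sensors, hedgehog release and response, H2A histones, CXC chemokines and receptors, CYP2 and related enzymes, the Ssbp and Ldb complex, and the Eva1 and CCN families, the 10 genes themselves left out, 95 genes were tested at day 14. Of these, edgeR called 0 against water, scrambled 2 or untreated lungs. At an unadjusted edgeR p under 0.05 were 8, 12 and 12 of the 95, where 11%, 10.9% and 8.79% of all genes were. DESeq2 called 1, 0 and 0, and gave no adjusted p for 38, 25 and 0 of the 95, in the same order. Against daily saline edgeR called 2 of the 95, where it called 2.16% of all genes. At an unadjusted edgeR p under 0.05 were 18, where 16.3% of all genes were. DESeq2 called 3 there and gave no adjusted p for 13. The 2 were Gli1, a transcription factor and target of hedgehog signalling, and Smo, the signal transducer of the pathway. Gli1 averaged 28.8 CPM in scrambled 1 and 19.6 CPM in daily saline lungs (log2 0.56, SE 0.13). Smo averaged 80.9 CPM in scrambled 1 and 95.8 CPM in daily saline lungs (log2 -0.24, SE 0.06). The intronic share did not overlap between these groups, and the 2 calls are not read as a result about the lists. The median log2 fold change against water lay between -0.05 and 0.14 in each of the 10 lists.

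Among day 14 groups other than scrambled 1, 0 of the 10 genes passed the test in any of 4 comparisons, by edgeR or by DESeq2. In daily saline against untreated lungs DESeq2 gave no adjusted p for Slc17a2, Colq, Hpcal4, Cyp2e1 and Wisp2, and could not call them. Scrambled 2 against water had 0% of 14179 genes past the threshold, daily saline against untreated 0.233%, water against untreated 0.0494% and daily saline against water 2.74%. At an unadjusted p under 0.05, 2 of the 10 genes would have passed in scrambled 2 against water, 0 in daily saline against untreated, 5 in water against untreated and 4 in daily saline against water, where 5.32%, 9.24%, 8.09% and 17.7% of all genes did, in the same order. Water had the lowest mean of day 14 for 5 of the 9 genes that were highest in scrambled 1, and scrambled 2 for the other 4, so these counts are tied to how the genes were chosen. The largest difference between scrambled 2 and water lungs was that of Hpcal4 (log2 0.86, SE 0.26, edgeR adjusted p = 0.775), in which the scrambled 2 libraries stood at 2.26, 4.02, 4.14 and 2.17 CPM. Between water and untreated lungs Wisp2 came nearest to the threshold, at 8.86 ± 0.554 CPM in water and 12.8 ± 1.47 CPM in untreated lungs (log2 -0.53, SE 0.13, edgeR adjusted p = 0.149), with no overlap of the groups. Over the 10 genes the log2 fold changes had a median of -0.18 in water against untreated lungs and 0.03 in scrambled 2 against water. Their median size, with the sign left out, was 0.24 and 0.14, where that over all genes was 0.08 and 0.07. These medians are tied to the choice of genes as well.

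The order of group means differed between genes, and neighbours in it mostly did not differ beyond their spread. For Colq the order at day 14 was scrambled 1 (19.0 ± 1.55 CPM), untreated (13.8 ± 2.36), daily saline (12.8 ± 2.22), scrambled 2 (11.8 ± 0.762) and water (11.1 ± 0.338), with overlap between all neighbours but the first pair. For Disp2 it was scrambled 1 (34.4 ± 1.64 CPM), untreated (30.2 ± 2.33), daily saline (29.7 ± 1.04), water (25.0 ± 3.80) and scrambled 2 (24.7 ± 2.64), with overlap between all neighbours. For Eva1b and Ssbp4 the lowest group was scrambled 2, at 63.1 ± 9.77 and 38.3 ± 3.93 CPM.

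Age set most of these genes far apart. Daily saline lungs of day 14 were compared with saline lungs of day 6, a contrast that shares no library with scrambled 1 against water but joins age with the number of injections and the anaesthetic, which cannot be told apart here. Of the 10 genes 7 rose and 1 fell, where 41.1% of 14406 genes passed the edgeR test, 20.4% higher and 20.7% lower. The 7 include Hpcal4, whose call is not read as a test for the reason given below. The intronic share of reads did not overlap between these groups either, and with it as a covariate 7 of the 10 passed, H2afj no longer among them. Cxcl14 rose most, with 52.4, 51.9, 61.3 and 57.5 CPM at day 14, against 7.03, 5.58, 4.29 and 3.97 CPM at day 6 (log2 3.44, SE 0.15, edgeR adjusted p = 3.03e-17). Cyp2e1 had 22.1, 19.1, 21.7 and 17.7 CPM at day 14, against 1.36, 1.98, 1.72 and 3.71 CPM at day 6 (log2 3.12, SE 0.19, edgeR adjusted p = 4.77e-15). Over all 20 libraries of day 14 the lowest values of these 2 genes were 46.1 and 16.1 CPM, and over the 12 of day 6 the highest were 11.8 and 3.71 CPM. Colq rose by 2.76 on the log2 scale (SE 0.17, edgeR adjusted p = 3.82e-15), with 10.7 to 15.02 CPM at day 14, against 1.24 to 2.21 CPM at day 6. Hpcal4 stood at 1.81 to 3.41 CPM at day 14, against 0.247 to 0.368 CPM at day 6, where it rested on few reads (log2 3.03, SE 0.36). It passed the filter on low counts only through its day 14 levels, so it could be called only as higher at day 14. Its call is therefore not read as a test.

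Disp2 and Wisp2 rose about equally, at log2 1.11 (SE 0.12, edgeR adjusted p = 4.39e-09) and 1.01 (SE 0.15, edgeR adjusted p = 2.00e-06). Slc17a2 was the only one of the 10 that fell, with 8.55, 6.82, 6.35 and 7.44 CPM in daily saline lungs of day 14, against 12.6, 11.2, 11.9 and 12.5 CPM in saline lungs of day 6 (log2 -0.72, SE 0.16, edgeR adjusted p = 0.000317). These 7 genes, Hpcal4 counted though not read as a test, passed in all 8 fits with a library left out. They also passed with untreated, water or scrambled 2 lungs in place of daily saline. H2afj rose little (log2 0.27, SE 0.10, edgeR adjusted p = 0.0363) and lost its call in 6 of the 8 fits with a library left out, keeping it only without daily saline replicate 3 or saline replicate 1. Its call was also lost with water or scrambled 2 lungs as the day 14 group. Eva1b (log2 0.30, SE 0.13, edgeR adjusted p = 0.0647) and Ssbp4 (log2 0.08, SE 0.10, edgeR adjusted p = 0.588) did not pass.

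**Figure D3:**
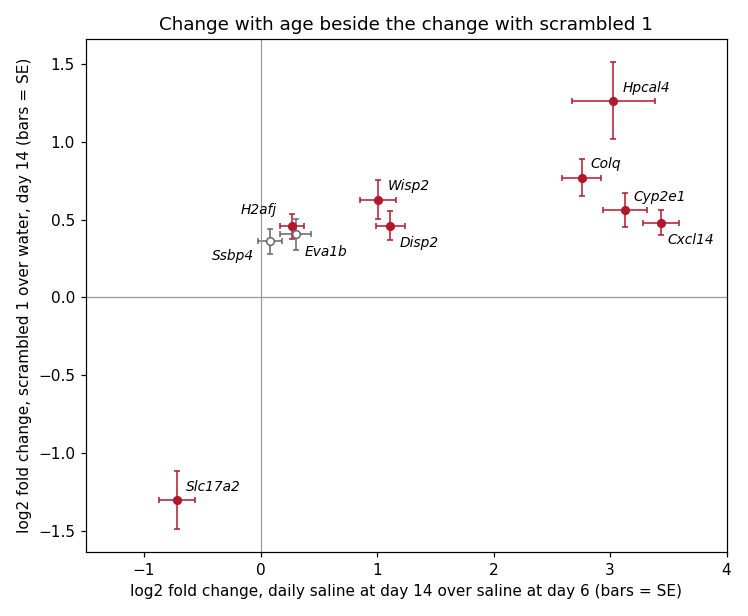
Log2 fold change of daily saline lungs at day 14 over saline lungs at day 6 (horizontal axis) against that of scrambled 1 over water lungs at day 14 (vertical axis), with SE bars, filled where the age comparison passed the edgeR threshold. Slc17a2 is below 0 on both axes (-0.72 and -1.30) and the other 9 genes are above 0 on both, Cxcl14 farthest right at 3.44 and Hpcal4 highest at 1.26.

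The signs of the differences with age and with scrambled 1 were set side by side. The scrambled 1 signs of the 10 genes are among the values they were chosen on, so nothing is read from the 8 genes that passed with age having the same sign in scrambled 1 against water, scrambled 2 and untreated lungs. Of all 5840 genes that passed with age and were tested at day 14, 73.4% had the sign of the age difference in scrambled 1 against water, 59.0% against scrambled 2 and 61.6% against untreated lungs. Of those that edgeR also called in the scrambled 1 comparison, 15 of 15 had it against water, 12 of 16 against scrambled 2 and 24 of 30 against untreated lungs. The 15 hold the same 8 genes, the 16 hold Slc17a2, Colq, Disp2 and H2afj, and the 30 hold Slc17a2 and Cxcl14. Nothing is read from these counts either. These comparisons share the scrambled 1 libraries. In scrambled 2 against water 68.4% of the 5840 genes had the sign of age, and in water against untreated lungs 35.8%. Both share the water libraries, none of them high in Xist, with scrambled 1 against water. The part of the water libraries in these shares was not tested. Slc17a2 stood at 2.94 ± 0.372 CPM in scrambled 1 lungs of day 14, 7.29 ± 0.952 CPM in daily saline lungs of day 14 and 12.0 ± 0.672 CPM in saline lungs of day 6.

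The relatives moved with age in both directions. In the hedgehog list 11 of 18 tested genes fell and 4 rose. Gli1 averaged 19.6 CPM at day 14 and 52.9 CPM at day 6 (log2 -1.43, SE 0.12, edgeR adjusted p = 1.47e-11), and the ligand Shh 21.6 CPM at day 14 and 39.6 CPM at day 6 (log2 -0.87, SE 0.09, edgeR adjusted p = 4.81e-10). Scube2, which helps to release hedgehog ligands, rose as Disp2 did (log2 1.58, SE 0.14, edgeR adjusted p = 1.50e-10). In the list of CYP2 and related enzymes 11 of 18 rose and 1 fell, with Cyp4b1 at 158 CPM at day 14 and 87.6 CPM at day 6. Ache, the enzyme that Colq anchors, rose to 7.72 CPM at day 14, against 3.97 CPM at day 6 (log2 0.97, SE 0.17, edgeR adjusted p = 2.56e-05), and 4 of 10 cholinergic genes rose and 1 fell. Of 8 other H2A histones 5 fell and 1 rose, with H2afx at 17.1 CPM at day 14 and 41.0 CPM at day 6 (log2 -1.26, SE 0.16, edgeR adjusted p = 1.89e-07). H2afj had the opposite sign to those 5. Of 10 adventitial fibroblast markers 8 rose and 0 fell, and all 8 endothelial markers rose, where 20.4% of all genes rose and 20.7% fell. Of 10 epithelial markers 6 rose and 1 fell, of 8 mesenchymal 2 rose and 2 fell, and of 8 mesothelial 1 rose and 1 fell. Of 8 heart muscle genes 0 rose and 4 fell. Of 8 nerve and Schwann cell and 8 adipose genes 2 each rose and 0 fell. Of 5 thymus genes 1 rose, of 7 skeletal muscle genes 1 fell, and of 5 liver genes 0 passed. The part of these lists in the changes of the 10 genes was not tested.

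At day 6 tamoxifen lungs were compared with Miglyol lungs, to see what the drug added to its oil, and the 2 groups with saline. Hpcal4, at group means of 0.288 to 0.317 CPM, did not pass the filter on low counts at this age, which leaves 9 genes. Against Miglyol 3 of the 9 rose and 1 fell after tamoxifen, where 5.68% of 14107 genes passed, 3.71% higher and 1.96% lower. Slc17a2 had 25.3, 21.9, 23.9 and 16.003 CPM in tamoxifen lungs, against 18.6, 14.2, 13.3 and 14.3 CPM in Miglyol lungs (log2 0.52, SE 0.13, edgeR adjusted p = 0.0242). Colq had 3.15, 2.98, 2.93 and 3.90 CPM in tamoxifen lungs, against 2.35, 1.52, 1.74 and 1.86 CPM in Miglyol lungs (log2 0.77, SE 0.22, edgeR adjusted p = 0.0444). The groups overlapped for Slc17a2, where tamoxifen replicate 4 was low, and not for Colq. Cxcl14 had 11.8, 8.65, 9.75 and 5.50 CPM in tamoxifen lungs, against 5.40, 4.77, 4.12 and 6.52 CPM in Miglyol lungs (log2 0.77, SE 0.22, edgeR adjusted p = 0.0447). Wisp2 was lower, with 4.34, 6.34, 4.26 and 4.20 CPM in tamoxifen lungs, against 7.44, 6.18, 9.44 and 9.42 CPM in Miglyol lungs (log2 -0.75, SE 0.18, edgeR adjusted p = 0.0157). In both genes 1 tamoxifen library lay among the Miglyol values, replicate 4 for Cxcl14 and replicate 2 for Wisp2. Saline lungs lay between the 2 groups for Wisp2, at 5.78 ± 0.870 CPM. Against saline Wisp2 did not pass after tamoxifen (log2 -0.27, SE 0.19, edgeR adjusted p = 0.315) or after Miglyol (log2 0.49, SE 0.18, edgeR adjusted p = 0.0788). The difference from Miglyol thus holds a higher level in the oil group. The count of 4 was 0 without tamoxifen replicate 1 or Miglyol replicate 3, 1 without tamoxifen replicate 3 or Miglyol replicate 2, and 2 without Miglyol replicate 4.

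Against saline 5 of the 9 rose and 1 fell after tamoxifen, where 23.7% of genes passed, 11.3% higher and 12.3% lower. Slc17a2 had 16.003 to 25.3 CPM in tamoxifen lungs, against 11.2 to 12.6 CPM in saline lungs, with no overlap (log2 0.85, SE 0.14, edgeR adjusted p = 0.000467). H2afj had 42.7, 36.3, 36.7 and 34.3 CPM in tamoxifen lungs, against 30.8, 25.3, 22.8 and 19.9 CPM in saline lungs (log2 0.61, SE 0.12, edgeR adjusted p = 0.00199). These 2 genes passed in all 8 fits with a library left out. Colq (log2 0.78, SE 0.22), Cxcl14 (log2 0.79, SE 0.22) and Ssbp4 (log2 0.38, SE 0.11) rose as well, at edgeR adjusted p-values of 0.0187, 0.0178 and 0.0259. Cyp2e1 fell, with 1.52, 0.577, 0.621 and 1.20 CPM in tamoxifen lungs, against 1.36, 1.98, 1.72 and 3.71 CPM in saline lungs (log2 -1.24, SE 0.36, edgeR adjusted p = 0.0207). It rests on 6 to 14 exon reads in each tamoxifen library. Without saline replicate 4 the count was 3, and the calls of Cxcl14, Cyp2e1 and Ssbp4 ended.

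Miglyol against saline gave 1 call among the 9, where 10.6% of genes passed and 3.33% were higher. H2afj rose, with 32.3, 28.4, 30.7 and 38.1 CPM in Miglyol lungs, against 30.8, 25.3, 22.8 and 19.9 CPM in saline lungs (log2 0.40, SE 0.12, edgeR adjusted p = 0.0448). The groups overlapped, and the call ended without any of Miglyol replicates 1, 3 and 4 or of saline replicates 2, 3 and 4. The 3 comparisons of day 6 share their groups in pairs, so their values stand side by side and are not independent.

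**Figure D4:**
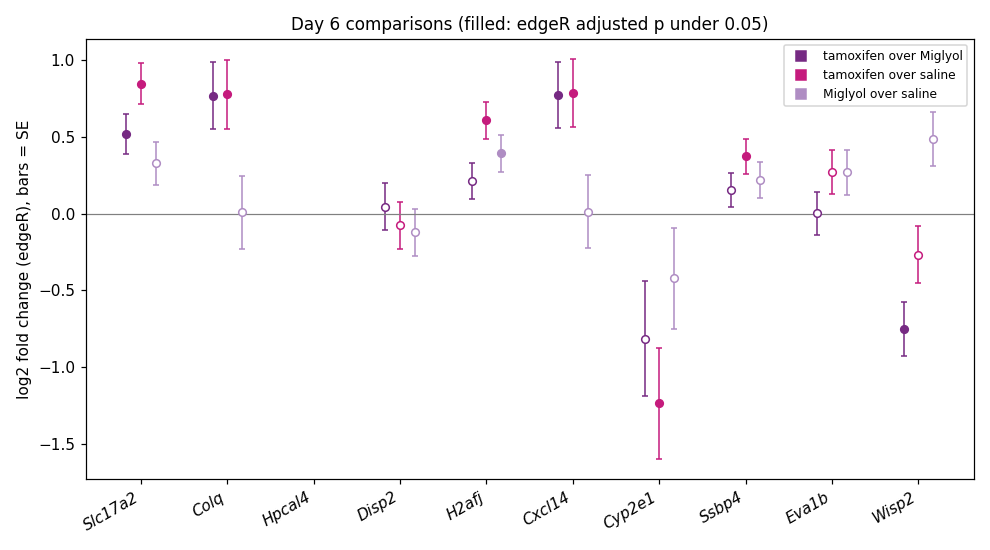
Log2 fold change in the 3 comparisons of day 6 (vertical axis, points, bars are SE), filled where the edgeR adjusted p is under 0.05, with Hpcal4 left blank since it did not pass the filter. Slc17a2, Colq and Cxcl14 are above 0 after tamoxifen against both controls. Wisp2 is at -0.75 after tamoxifen against Miglyol and at -0.27 against saline, and Disp2 and Eva1b have no filled point.

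Slc17a2 thus stood higher at day 6 than at day 14, highest after tamoxifen, and lowest in scrambled 1 lungs, at group means of 21.8 ± 4.08 CPM after tamoxifen and 2.94 ± 0.372 CPM after scrambled 1. Colq ran the other way with age but the same way with tamoxifen. Markers of lung epithelium moved with tamoxifen, with 4 of 10 higher and 0 lower than after Miglyol and 7 higher and 0 lower than after saline. Their summed level was 20840 to 23710 CPM in tamoxifen lungs, 17840 to 21990 CPM in Miglyol lungs and 15750 to 16830 CPM in saline lungs. Its part in the changes was not tested. Among relatives, the hedgehog target Gli1 (log2 0.55, SE 0.08, edgeR adjusted p = 0.000642) rose after tamoxifen against Miglyol, with 3 of 18 genes of that list higher and 1 lower, whereas Disp2 did not pass (log2 0.05, SE 0.15, edgeR adjusted p = 0.908). Gli1 was itself lower after Miglyol than after saline (log2 -0.30, SE 0.08, edgeR adjusted p = 0.0291). It averaged 63.0 CPM in tamoxifen, 43.0 CPM in Miglyol and 52.9 CPM in saline lungs. Against saline 0 genes of that list were higher and 3 lower after Miglyol, and 3 were higher and 5 lower after tamoxifen. In the enzyme list 3 of 16 rose and 1 fell against Miglyol, with Cyp2f2, an enzyme of airway secretory cells, at 496 CPM in tamoxifen and 345 CPM in Miglyol lungs (log2 0.53, SE 0.08, edgeR adjusted p = 0.000724).

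Within groups the 10 genes did not move as a unit. The deviations of log2 CPM from the group means over the 32 libraries, which also carry differences in library make-up, had Pearson correlations of -0.439 to 0.764 over the 45 pairs of genes, with a median of 0.00225. The 6 pairs above 0.5 lay among H2afj, Cxcl14, Ssbp4, Eva1b and Wisp2, with Ssbp4 and Eva1b highest, while Hpcal4 and H2afj were lowest. The genes most alike in these deviations, out of 13429 genes with a mean of at least 1 CPM, were Fam204a (r = 0.723) for Slc17a2, Proser3 (0.718) for Colq, and Tox2 (0.724) for Cyp2e1. They were Ubald2 (0.833) for Cxcl14, Mlf2 (0.898) for Ssbp4, Jund (0.878) for Eva1b, Pdlim7 (0.806) for Wisp2, Tecr (0.788) for H2afj, Fam72a (0.732) for Disp2 and C1rl (0.659) for Hpcal4. No gene is first for more than 1 of the 10. Each r is the highest of 13429 over 32 libraries, and how high the search alone would take it was not tested. Counting noise at low levels, as in Hpcal4, also limits such correlations, those between the 10 genes included. Spread within groups was smallest for Ssbp4, with a median coefficient of variation of 7.36% over the 8 groups, and largest for Hpcal4, at 23.4%.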

How the data were processed

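RNA of 32 mouse lung libraries (stranded, polyadenylated RNA) was grouped by the sample labels. The submitters' processing notes name bcl2fastq 2.0 for demultiplexing. Not given in the sources used here are an aligner, a genome build and whether strand was used in counting. Deposited with each sample is a table that holds, per gene record, counts of exon, intron and other reads made by the authors, in total and for reads that map to a single place. It also holds TPM and, per the file headers, RPKM computed by the authors. TPM served here to compare levels between genes, and RPKM was not used.

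Total exon counts were fitted over all genes in R 4.3.3 by the robust quasi-likelihood F test of edgeR 4.0.16, after filterByExpr and TMM, with 20 libraries at day 14, 12 at day 6 and all 32 for age. Adjusted p is by Benjamini and Hochberg over all genes tested, with a threshold of 0.05, and the SE of a log2 fold change was taken as its size over the root of F. Depth was 7918537 to 12443221 exon reads a library, and the median SE over all genes was 0.0927 for scrambled 1 against water. No replicate pair agreed within counting noise (chi-square per gene 2.32 to 15.9).

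The members, the lists of relatives and the markers were chosen with earlier results of these data known. The rule named the 10 genes, for each the 2 genes most alike in its deviations from group means, and list genes past the threshold with the smallest p. Of the 2 most alike, only the first is given above. Alternatives were DESeq2 1.42.0, RLE scaling, other filters on low counts (no filter, or at least 1 CPM in 4 libraries), unique reads, Xist or the intronic read share as a covariate, only the 8 libraries compared, the replicate number as a block, and each library left out. Other day 14 groups in the age comparison were added after results were seen.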

Additional observations from a re-analysis of the deposited data

Results flagged for a closer look

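Of 80 groups of 4 libraries (10 genes in 8 groups) 1 held a library far from the others. Wisp2 stood at 6.34 CPM in tamoxifen replicate 2 and at 4.20 to 4.34 CPM in the other 3 tamoxifen libraries, a gap of 0.934 of the range, above Dixon's critical value. Chance flags about 1 in 20 groups. Without this library Wisp2 remained past the threshold in tamoxifen against Miglyol.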

How the results depend on the processing

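Of the values of single genes under all alternatives, 1772 kept their direction and side of the threshold, 175 kept the direction and lost the call, 12 gained it and 48 changed sign, none of them past the threshold. Counts of the 10 genes past the threshold were as follows. With Xist as a covariate scrambled 1 against water gave 1. With the intronic read share as a covariate scrambled 1 against daily saline gave 1 (Ssbp4), tamoxifen against saline 3 and Miglyol against saline 0. With only the 8 libraries compared scrambled 1 against scrambled 2 gave 3, scrambled 1 against untreated 0, tamoxifen against Miglyol 1 and Miglyol against saline 2. The cause was not tested. Same-numbered replicates had correlations of their deviations of -0.246 to 0.499 at day 14, -0.381 to 0.222 at day 6 and -0.187 to 0.119 between daily saline and saline. In scrambled 1 against daily saline all 4 pairs were above 0.1 (0.123 to 0.181), and with the replicate block the count was 4, without Cyp2e1, where it had been 5. In no other comparison were all 4 pairs above 0.1, and there the libraries share only a number. With the replicate block scrambled 1 against water gave 6, where it had been 8, scrambled 1 against untreated 1, tamoxifen against Miglyol 2 and Miglyol against saline 0.

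With each library left out, the counts ran from 2 to 8 for scrambled 1 against water, 0 to 8 against scrambled 2, 0 to 1 against untreated and 2 to 5 against daily saline. They ran from 0 to 3 for tamoxifen against Miglyol, 0 to 2 for Miglyol against saline, 3 to 6 for tamoxifen against saline and 7 to 9 for age, and were 0 in each of the 4 comparisons of day 14 without scrambled 1.

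Signs changed as follows (log2 fold change). Daily saline against untreated gave 0.0048 for Cyp2e1 with Xist as a covariate, and with the intronic share 0.0296 for Colq, 0.0219 for Cyp2e1 and -0.0503 for Eva1b. With that share daily saline against water gave -0.2599 for Slc17a2 and -0.0053 for Eva1b, Miglyol against saline -0.3957 for Cxcl14 and age -0.2019 for Ssbp4. Water against untreated gave -0.0009 for Ssbp4 with unique reads, and tamoxifen against Miglyol -0.0113 for Eva1b with the replicate block. With each library left out, scrambled 2 against water ran from -0.0998 to 0.0737 for Disp2 and from -0.1285 to 0.0078 for H2afj. Daily saline against untreated ran from -0.0568 to 0.0328 for Disp2, -0.1114 to 0.0889 for Cyp2e1 and -0.0464 to 0.1003 for Eva1b. Water against untreated ran from -0.0663 to 0.0583 for Ssbp4 and -0.1387 to 0.0078 for Eva1b, and daily saline against water from -0.0731 to 0.1374 for Slc17a2. Tamoxifen against Miglyol ran from -0.1079 to 0.0575 for Eva1b and -0.0658 to 0.166 for Disp2. Miglyol against saline ran from -0.139 to 0.0869 for Colq, -0.111 to 0.1853 for Cxcl14 and -0.5861 to 0.0112 for Cyp2e1, tamoxifen against saline from -0.1876 to 0.0452 for Disp2, and age from -0.0244 to 0.2057 for Ssbp4.

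DESeq2 gave no adjusted p for 12 values, those of Slc17a2, Colq, Hpcal4 and Wisp2 in scrambled 1 against water among them, and it called the 6 other genes there. Low counts limit Slc17a2 after scrambled 1, Hpcal4 at both ages and Cyp2e1 at day 6.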
